A study of Mus musculus with 82 samples.

Results

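Adnp peaks that lie close together along the chromosome are described here. The members were chosen by their positions in the authors' Adnp peak list: on chromosomes 1 to 19, neighbouring peaks with a gap of at most 10 kb were joined, and every peak in a joined run of 4 or more was kept. This gave 1902 peaks in 373 runs, out of 14903 autosomal peaks and 15026 in the whole list. They are set against the 8252 solitary peaks, which have no neighbour within 10 kb, and against the other 4749 peaks, which form 2127 runs of 2 or 3. The list comes from chromatin immunoprecipitation with sequencing (ChIP-seq) of Adnp in mouse embryonic stem cells of a hybrid 129-C57BL/6 background, grown in 2i medium with LIF, a medium that holds the cells in a naive state, and given no treatment. Their genotype was Adnp FlagAvi: Adnp carried a tag that can be biotinylated, so that it was pulled down on streptavidin beads, and the series calls these cells wild type. The authors tied the list to 3 replicates together and it holds 1 row per peak, so a spread between replicates cannot be given and the sequencing depth behind a peak is unknown. A second list, of HP1γ (the product of Cbx3), was tied by the authors to 3 replicates of Cbx3 FlagAvi cells and 3 of Cbx3 FlagAvi cells with an Adnp knock-out (Adnp KO), grown in the same way, and was restricted to peaks without the Adnp motif. Whether a line was a single clone is not stated for these ChIP samples, and the RNA-seq and ATAC-seq samples of the series were not used here.

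Adnp is a large nuclear protein with zinc fingers and a homeodomain. With the chromatin remodeller Chd4 and HP1 proteins it forms the ChAHP complex, which binds DNA through Adnp. HP1 proteins are best known as readers of methylated histone H3 lysine 9 in heterochromatin, while in ChAHP they are held by Adnp. The complex is known for restraining lineage genes in embryonic stem cells and for meeting the insulator protein CTCF at sites that carry overlapping motifs.

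A few promoters lay wholly inside a run peak, and 4 are printed here as examples, not as typical of the sequence under runs. Of 20560 protein-coding genes, 6 met this condition in the RefSeq promoter table for GRCm38.p6, in which 16457 of them had a promoter. The upstream 250 bases of the 4 under the highest-scoring peaks are printed 5′ to 3′ on the strand of the gene. Capitals mark the letters CGCCCNCT or their reverse complement AGNGGGCG, which resemble part of the CTCF motif. The position N was left free, so a match, such as AGTGGGCG in the Cdsn window, need not fit that motif well.
Cdsn, chr17:35542851-35543100, plus strand: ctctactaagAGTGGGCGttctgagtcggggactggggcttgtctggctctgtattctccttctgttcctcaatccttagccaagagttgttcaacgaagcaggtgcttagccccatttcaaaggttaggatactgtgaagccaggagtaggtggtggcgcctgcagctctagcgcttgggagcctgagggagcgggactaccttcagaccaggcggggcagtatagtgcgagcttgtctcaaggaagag
Sirt6, chr10:81627323-81627572, minus strand: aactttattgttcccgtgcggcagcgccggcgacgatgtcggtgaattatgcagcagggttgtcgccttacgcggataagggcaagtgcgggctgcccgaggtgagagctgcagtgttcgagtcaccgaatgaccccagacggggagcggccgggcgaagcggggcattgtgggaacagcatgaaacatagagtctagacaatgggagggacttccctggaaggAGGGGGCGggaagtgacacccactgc
Cox5b, chr1:36691237-36691486, plus strand: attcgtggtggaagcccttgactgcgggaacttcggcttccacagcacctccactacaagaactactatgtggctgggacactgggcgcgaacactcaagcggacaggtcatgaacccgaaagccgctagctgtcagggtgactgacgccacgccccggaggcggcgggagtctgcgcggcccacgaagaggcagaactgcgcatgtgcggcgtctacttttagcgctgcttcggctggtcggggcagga
Gm37116, chr3:88284799-88285048, minus strand: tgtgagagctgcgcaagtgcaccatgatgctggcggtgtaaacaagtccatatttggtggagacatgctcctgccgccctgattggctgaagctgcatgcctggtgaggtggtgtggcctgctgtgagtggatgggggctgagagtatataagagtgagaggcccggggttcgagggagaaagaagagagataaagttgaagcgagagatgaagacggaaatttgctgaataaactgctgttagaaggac
Cdsn encodes a protein of the junctions between skin cells, Sirt6 a chromatin deacylase, and Cox5b a subunit of cytochrome c oxidase. The peak over the Cdsn promoter had an authors' score of 62.6 and was the highest of a run of 4. Over the Sirt6 window the score was 56.6, again the highest of 4. Scores over the Cox5b and Gm37116 promoters were 25.9 and 22.7, in runs whose highest peaks scored 54.2 and 131. The letters were found once each in the Cdsn and Sirt6 windows and not in the other 2 windows. Of all 31396 promoters in the RefSeq set, 10.9% held them on either strand. They were in 6 of the 27 promoters touched by a run peak (22.2%, 95% Wilson interval 10.6 to 40.8, counting error only) and in 49 of the 190 touched by a solitary peak (25.8%, 20.1 to 32.4). The intervals of both shares overlapped. That of the promoters under run peaks includes the 10.9% of all promoters, while that under solitary peaks lies above it. The 27 promoters came from 25 genes and the 190 from 172, so not every promoter is an independent count. Such matches describe letters only.

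Most runs were short and few were long. There were 200 runs of 4 peaks, 74 of 5, 39 of 6, 28 of 7, 13 of 8 and 11 of 9. The remaining 8 held 10 peaks (1 run), 11 (3 runs), and 12, 13, 14 and 17 (1 run each). Just below the size limit lay 495 runs of 3 peaks. A run spanned 2710 to 49036 bp from its first to its last base, with a median of 17053 bp and quartiles of 12716 and 21956 bp. Together the runs covered 6814 kb, or 0.284% of the length of the 19 chromosomes. Peaks themselves filled a median of 13.4% of a span.

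Gaps between neighbouring run peaks had a median of 3385 bp (quartiles 1316 and 6036 bp), and 19.4% of the 1529 gaps were 1 kb or shorter. The widest gap joined was 9975 bp and the narrowest left unjoined anywhere in the list was 10003 bp. Gaps above 9 kb, near the limit, made up 4.91%. The number of runs follows the limit closely: a limit of 5 kb left 149 runs and a limit of 20 kb gave 703.

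**Figure D1:**
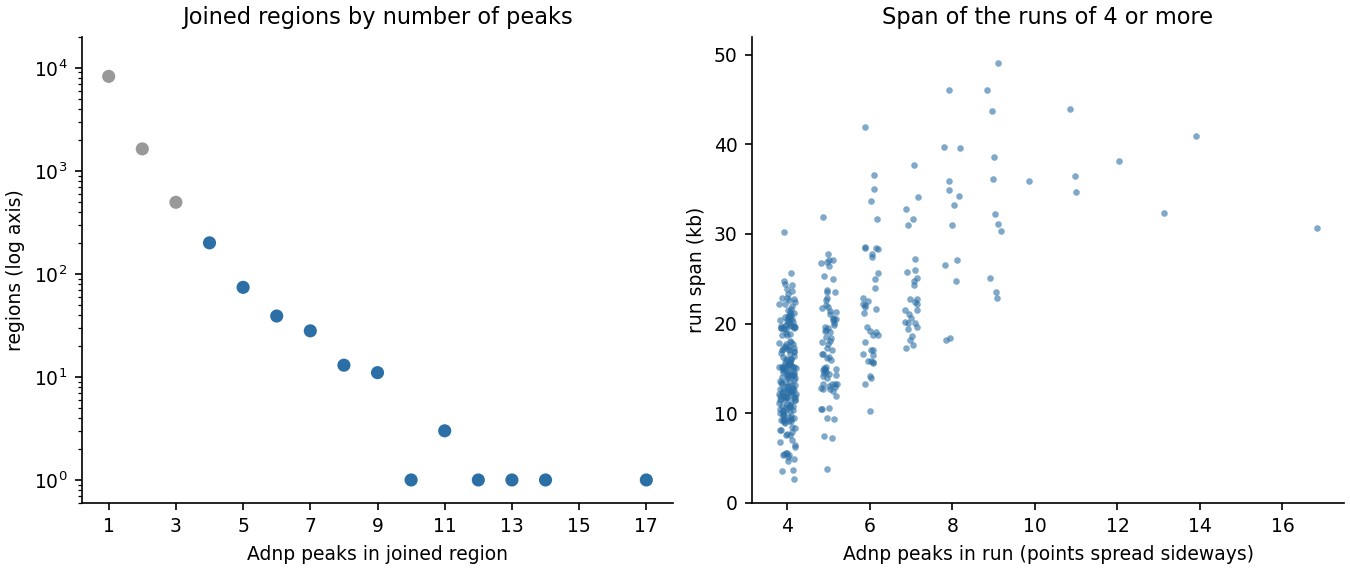
Number of joined regions by the peaks they hold (left, log axis; blue points are the runs of 4 or more, grey points smaller regions) and the span in kb of each run against its number of peaks (right, 1 point a run). The counts fall from 8252 solitary peaks to 200 runs of 4 and 1 run of 17, and the longest span, 49.0 kb, belongs to a run of 9.

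Scores and widths came from the same ChIP that chose the members and are given as a description. The kind of score is not stated. Run peaks had a median score of 21.9 (quartiles 14.4 and 35.4), solitary peaks 20.9 (13.9 and 32.9) and peaks in runs of 2 or 3 21.5. The highest score in a run was 529 and the highest of a solitary peak 565, so strong peaks were found in both settings. Scores above 50 were held by 13.8% of run peaks and 11.3% of solitary peaks. Median widths were 436 bp in runs, 409 bp in runs of 2 or 3 and 382 bp for solitary peaks.

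Within a run the peaks were uneven. The highest score of a run was a median of 4.46 times its lowest (range 1.07 to 47.6). In 165 of 373 runs (44.2%) the highest peak stood at an edge, where on average over runs the edge peaks were 42.3% of a run's peaks. The run with the highest score of all, 529, held 7 peaks at chr14:45431857-45449095, with a median score of 26.2. It touched no protein-coding gene, and Fermt2, which encodes a kindlin adaptor of integrins, was the nearest at 9697 bp. Here and below, a gene given as the nearest to a run that touches none was named after its values were seen.

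The 19 runs of 9 or more peaks lay on 10 chromosomes, with 5 on chromosome 6 and 4 on chromosome 11. The run of 17 peaks at chr11:107132206-107162864 touched the non-coding gene Gm11715 and lay 59 bp from Bptf, which encodes a subunit of the NURF chromatin remodeller. Its scores ran from 6.68 to 158 with a median of 29.1, and the 2 highest, 118 and 158, stood in its interior. On the same chromosome, a run of 14 at chr11:107502826-107543753 had scores of 7.69 to 45.2, and its nearest protein-coding gene, at 3210 bp, was Helz, an RNA helicase gene. A run of 12 at chr11:77636229-77674403 had scores of 9.85 to 58.6, with Taok1, a protein kinase gene, as the nearest at 10870 bp. These 3 runs touched no protein-coding gene.

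Tipin, which encodes a partner of Timeless at replication forks, was reached by the run of 13 at chr9:64266951-64299258. Of its peaks, 6 lay between genes ahead of Tipin and 7 in the gene. The highest, 85.6, was the peak farthest from Tipin, and scores in the gene ran from 13.5 to 54.9. Mkrn1, a ubiquitin ligase gene on chromosome 6, touched a run of 11. In it 9 of the 11 peaks lay between genes, and the highest score was 52.6. Another run of 11, at chr6:64998943-65035362, lay entirely between genes, 7229 bp from Smarcad1, a chromatin remodeller gene, with scores from 7.48 to 156. Nrf1, which encodes a transcription factor of respiratory genes, touched the longest run by span, 49.0 kb with 9 peaks, of which 4 lay in a gene. Irak2, a kinase gene of interleukin-1 signalling, held all 9 peaks of its run wholly or in part, and the highest, 81.6 and 64.1, were neighbours in its interior.

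**Figure D2:**
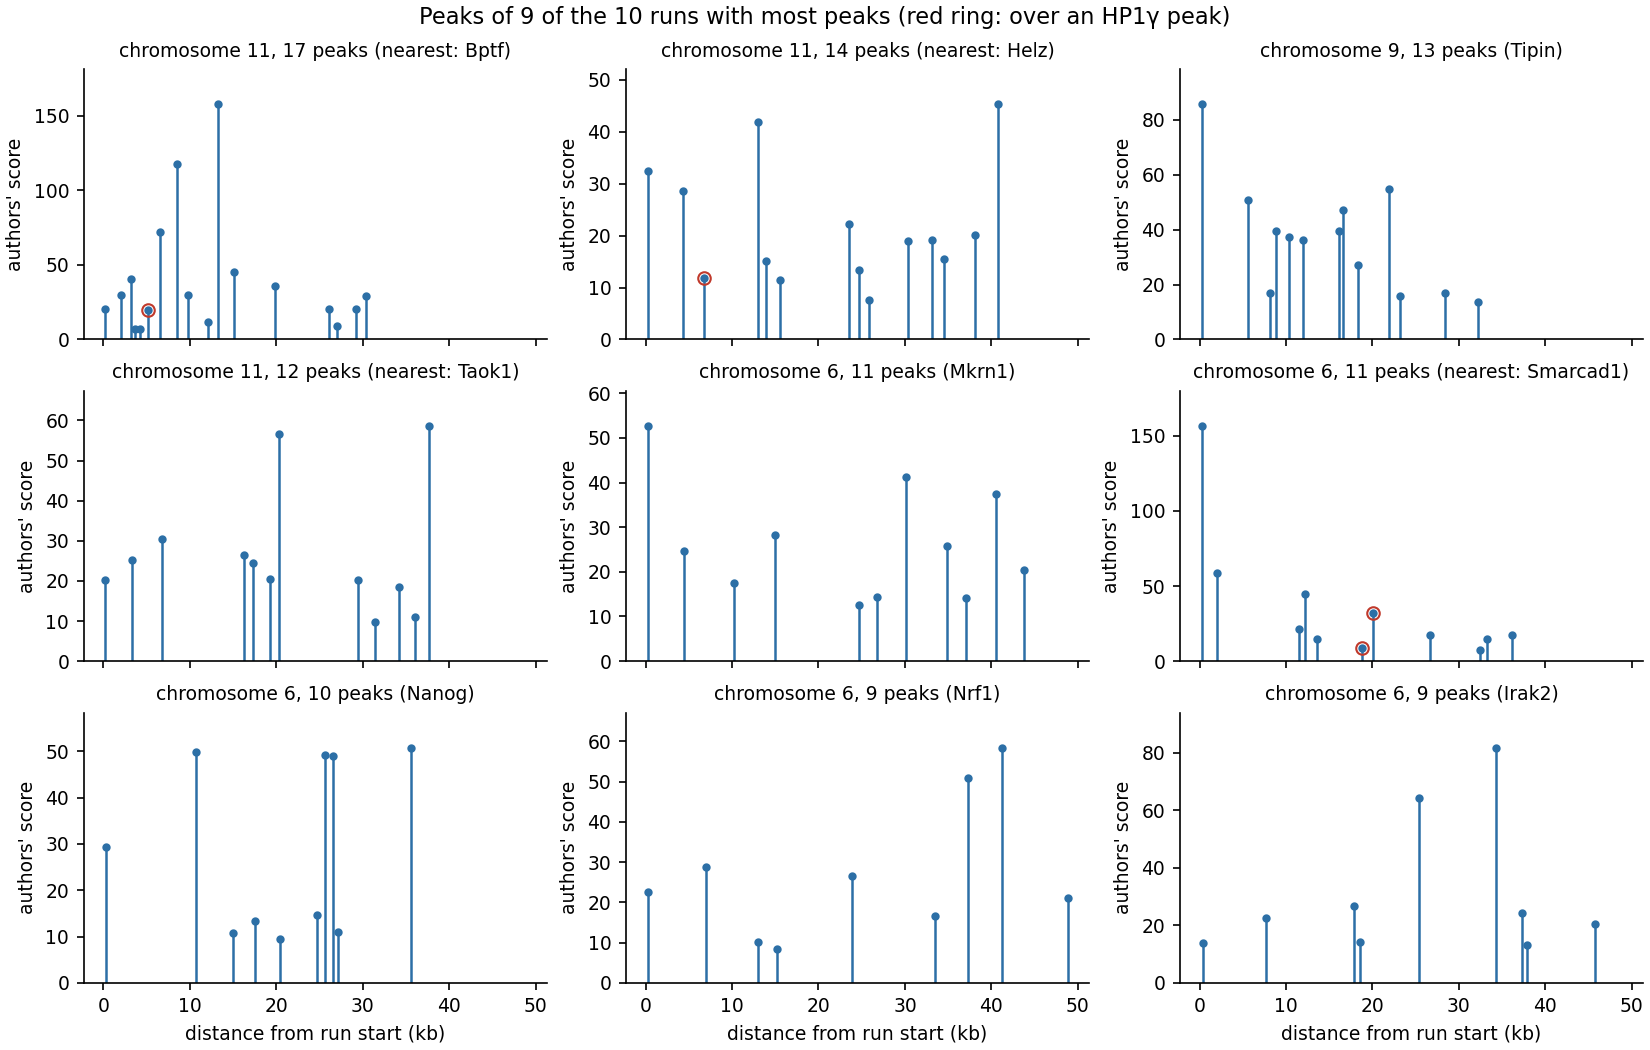
Peaks of 9 of the 10 runs with most peaks: distance from the run's first base (kb, horizontal) against the authors' score (vertical, scaled separately in each panel), 1 stem per peak, with a red ring on peaks that overlap an HP1γ peak. Titles give the chromosome and the protein-coding gene touched, or the nearest. High peaks stand at an edge in some runs (156 near Smarcad1) and in the interior in others (158 near Bptf).

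Core pluripotency genes were among those reached by long runs. Nanog, whose product is a homeodomain factor of the naive state, lay in a run of 10 peaks at chr6:122684884-122720781. In order along the chromosome the scores were 29.3, 49.8, 10.7, 13.3, 9.39, 14.7, 49.2, 49.1, 11 and 50.7. The 4 peaks with scores of 14.7, 49.2, 49.1 and 11 lay inside Nanog, and the top score stood beyond it. The run continued on both sides into others at short distance. With a run of 4 and a run of 8 it made a group of 22 peaks over 129 kb, in which each run lay within 50 kb of the next. The 8 peaks of the last run, with scores of 8.30 to 31.5, all lay inside Slc2a3, which encodes the glucose transporter GLUT3.

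Pou5f1, which encodes Oct4, touched a run of 9 peaks at chr17:35484740-35509856. Their scores in order were 18.1, 48.5, 24.8, 31.5, 84.2, 10.0, 11.3, 18.7 and 8.19. The first 6 peaks lay between genes, and only the last pair, with scores of 18.7 and 8.19, lay in Pou5f1. The highest peak, chr17:35496133-35497490, was therefore outside the gene. A run of 4 over Cdsn, whose promoter is printed above, lay within 50 kb of this one.

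Of the 23 genes on a list of pluripotency factors, Nanog and Pou5f1 were the 2 that touched a run (8.70%). A gene touches a run if it overlaps any part of the span, gaps between peaks included. By that measure 243 of 20560 protein-coding genes, 1.18%, were called touched. The list's genes had a median length of 7.14 kb, against 17.6 kb for all protein-coding genes. With a run peak within 5 kb of the gene counted instead, 5 of 23 were reached (21.7%, against 1.78% or 365 of all genes). The other 3, named after their values were seen, were Dppa2, Dppa4 and Dppa5a, genes of the early embryo. Dppa4 had all 4 peaks of its run within 5 kb, with a top score of 42.0, and Dppa2 had 3 of the 4 of the next run, with a top score of 30.3. Dppa5a had 1 peak, scored 58.8, from a run of 7. At solitary peaks, 5 of the 23 genes were touched (21.7%), where 16.8% of all protein-coding genes were.

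On a list of 17 ChAHP and heterochromatin genes 1 touched a run (5.88%, against 1.18% of all genes): Pogz, whose product binds HP1, with 4 peaks and a top score of 65.5. Morc3, named after its values were seen, was the other within 5 kb, which made 2 of 17 (11.8%, against 1.78%). Endoderm (15 genes), mesoderm (14) and neural (14) regulators had no member that touched a run or had a run peak within 5 kb. Solitary peaks touched 4, 1 and 0 of them. On lists this short the share of all genes amounts to less than 1 gene, so these zeros say little. None of 9 CTCF and cohesin genes, 39 Hox genes, 65 canonical histone genes and 1099 olfactory receptor genes touched a run. Solitary peaks touched 4, 1, 1 and 1 of them. For olfactory receptors, with a median length of 0.951 kb, that was 0.091%, against 16.8% of all protein-coding genes. Their absence was thus not particular to runs. Hox and histone genes were also seldom at solitary peaks (2.56 and 1.54%). Their median lengths were 3.74 and 0.493 kb, against 17.6 kb for all protein-coding genes. For runs, the share of all genes amounts to less than 1 gene on these lists too. Of 15 p53 targets and cell cycle brakes and 22 Polycomb genes none touched a run either. A run peak lay within 5 kb of 2 and 1 of them (13.3 and 4.55%, against 1.78% of all genes). These were Mdm2 and Sesn2, and Suz12, named after their values were seen. Solitary peaks touched 3 and 5 of the genes on these lists (20 and 22.7%, against 16.8%).

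Among 79 cytosolic ribosomal protein genes 1 touched a run (1.27%, near the 1.18% of all genes). This was Rpl13, in a run of 4 with a top score of 67.5. The gene lay in a gap of the run, and no run peak overlapped it. Zinc finger genes were touched in 6 of 415 cases, a share close to that of all genes too. Zfp141 held all 5 peaks of its run (top score 22.8) and Zfp13 all 4 (top score 110), while Zfp341 and Zfp74 held part of theirs. Axonemal dyneins, motor subunits of cilia, had 3 of 15 touched (20%, against 1.18% of all genes): Dnah2, Dnah8 and Dnah10. This list has a median gene length of 238 kb, against 17.6 kb for all protein-coding genes. Solitary peaks also touched 8 of its 15 genes (53.3%, against 16.8% of all genes). Dnah8 held 1 run of 5 and Dnah10 1 run of 4, with top scores of 104 and 120.

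**Figure D3:**
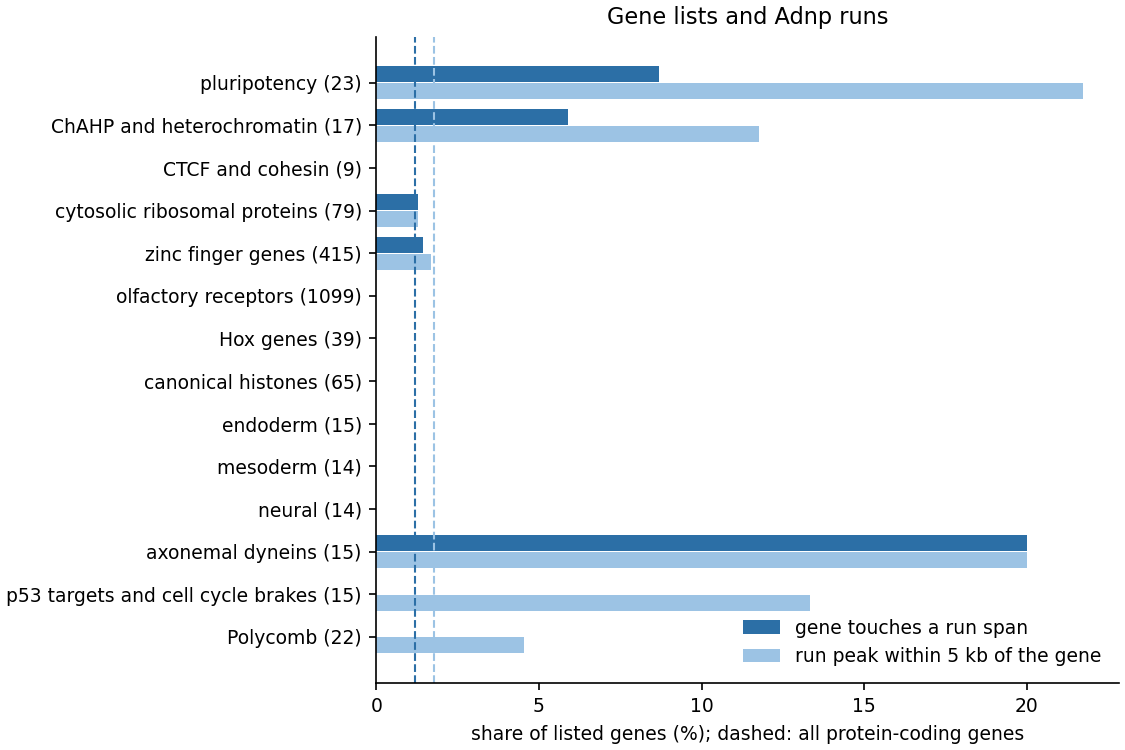
Share of the genes on each of 14 lists (number of genes in brackets) that touch a run (dark bars) or have a run peak within 5 kb (light bars), with dashed lines at the shares of all protein-coding genes, 1.18% and 1.78%. Pluripotency genes and axonemal dyneins have the longest bars, on lists of 23 and 15 genes, and 9 lists have no dark bar.

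Some genes held most of a run or several runs. B3glct, which encodes a glucosyltransferase, and Gtf2ird1, a transcription factor gene, held 12 run peaks each. Those of Gtf2ird1 came from 3 runs, part of a group of 5 runs with 23 peaks over 152 kb that reached into Gtf2i, and the 12 of B3glct came from 2 runs with top scores of 40.3 and 21.3. Dnah2 held 10 in 2 runs. Fbxo36, an F-box protein gene, and Irak2 held 9 each, Slc2a3 held 8, and Glt1d1, Pigl, Rbpms and Tipin held 7. Glt1d1 encodes a protein with a glycosyltransferase domain, Pigl an enzyme of GPI anchor synthesis and Rbpms an RNA-binding protein. These 10 genes were 23.9 to 147 kb long, above the median of all protein-coding genes.

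Strong run peaks also stood at the ends of genes. The highest of these, scored 417 at chr8:111300481-111302189, lay within 1 kb of an end of Rfwd3, a ubiquitin ligase gene of DNA repair, at the edge of a run of 4 whose median was 40.8. Pla2g1b, which encodes a secreted phospholipase, had a peak of 175 at its end in a run of 6 with a median of 15.1. Padi4, a peptidylarginine deiminase gene, followed with 153 in a run of 4 with a median of 13.6. Rnf125, a ubiquitin ligase gene, and Rsbn1l had 93.3 and 82.0. In those last 2 runs the medians were 40.8 and 56.9, so the peak at the gene end stood out less from its neighbours than at Rfwd3, Pla2g1b or Padi4.

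Runs as a whole reached few genes. There were 152 runs that touched no protein-coding gene, 193 that touched 1, 25 that touched 2 and 3 that touched 3. Those 3 lay over Snx21, Acot8 and Zswim3, over Ccnc, Tstd3 and Usp45, and over Klf1, Dnase2a and Mast1, all named after their values were seen. Runs that touched none were a median of 6749 bp from the nearest protein-coding gene, with a range of 56 to 129042 bp. A total of 80 runs lay inside a single protein-coding gene, and 141 held at least 1 end of such a gene. Genes touched by a run had a median length of 30.7 kb and those touched by a solitary peak 55.3 kb. These 2 values are not alike. A run counts every gene under its span, gaps included, while a solitary peak counts only genes it overlaps itself. Counting genes of every type, runs touched 119 lncRNA genes, 48 pseudogenes and 9 tRNA genes besides the 243 protein-coding ones. Among touched genes lncRNA genes made up 27.36%, close to their 26.38% of all annotated genes. Pseudogenes were fewer (11.03 against 18.83%). Protein-coding genes (55.86 against 44.01%) and the few tRNA genes (2.07 against 0.826%) had larger shares. These differences were not tested. A total of 76 runs touched no gene at all.

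Gene density around the runs was higher than around solitary peaks. In 200 kb centred on a run there were 5.04 ± 0.926 protein-coding genes (mean ± SD of 19 chromosome means), against 3.94 ± 0.803 around solitary peaks. The difference of 1.11 genes was positive on 17 of 19 chromosomes (adjusted p = 0.00028, two-sided permutation test that flips the sign of each chromosome's difference, with Benjamini-Hochberg adjustment over 7 comparisons). The chromosome is the unit of every such test here because peaks of a run are not independent, so these p-values measure spread between chromosomes and not between cultures. On chromosome 10 the means were 7.00 and 3.53 genes, while on chromosomes 8 and 17 they differed by less than 0.1 gene in the other direction. Windows with no protein-coding gene were found for 2 of 373 runs (0.536%, 95% Wilson interval 0.147 to 1.93). Among solitary peaks 388 of 8252 had such a window (4.70%, 4.27 to 5.18). Windows with 10 or more protein-coding genes were found for 31 runs (8.31%, 5.92 to 11.6) and 545 solitary peaks (6.60%, 6.09 to 7.16). At this upper end the intervals overlapped. All these intervals hold counting error only. They take windows as independent, although those of neighbouring peaks or runs can overlap, so they may be too narrow. Around peaks in runs of 2 or 3 the mean was 4.86 genes, 0.188 below that of longer runs, a difference that did not pass the test (adjusted p = 0.432, same permutation test). By size of the joined region the pooled means were 3.98 for solitary peaks, 4.93 for pairs, 5.14 for runs of 3, 5.05 for runs of 4, 5.30 for runs of 5, 5.04 for runs of 6 or 7, and 4.59 for runs of 8 or more.

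Although their surroundings were richer in genes, run peaks lay between genes more often. Every member fell in one of 3 classes: 251 lay within 1 kb of a gene end, 755 inside a gene and 896 between genes. The mean share between genes was 47.3 ± 13.1% for run peaks and 33.7 ± 2.82% for solitary peaks (SD, n = 19 chromosomes), higher in runs on 17 chromosomes (adjusted p = 0.00161, permutation test). The mean share inside genes was 40.2 ± 12.6% against 53.4 ± 2.90%, lower in runs on 16 chromosomes (adjusted p = 0.00183, permutation test). Pooled over chromosomes the shares were 47.1% and 33.4% between genes, and 39.7% and 53.8% inside. The spread between chromosomes was wider for run peaks, which are fewer. On chromosome 16 a share of 76.1% of 67 run peaks lay between genes, on chromosome 12 a share of 11.8% of 34. Against runs of 2 or 3 the differences were smaller and still passed the test. Between genes the means were 47.3 and 37.4% (adjusted p = 0.0280), and inside genes they were 40.2 and 48.6% (adjusted p = 0.0470, both by the permutation test).

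The share between genes was largest in the longest runs. It was 33.4% for solitary peaks, 34.6% in pairs, 41.5% in runs of 3, 42.5% in runs of 4, 37.6% in runs of 5, 49.5% in runs of 6 or 7 and 67.5% in runs of 8 or more, of which there were 32 with 302 peaks. The order is not unbroken, since runs of 5 lay below runs of 3 and of 4. Peaks of a run shared their place in a minority of runs. In 68 of 373 runs (18.2%) every peak lay between genes, and in 77 (20.6%) every peak lay inside a gene.

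**Figure D4:**
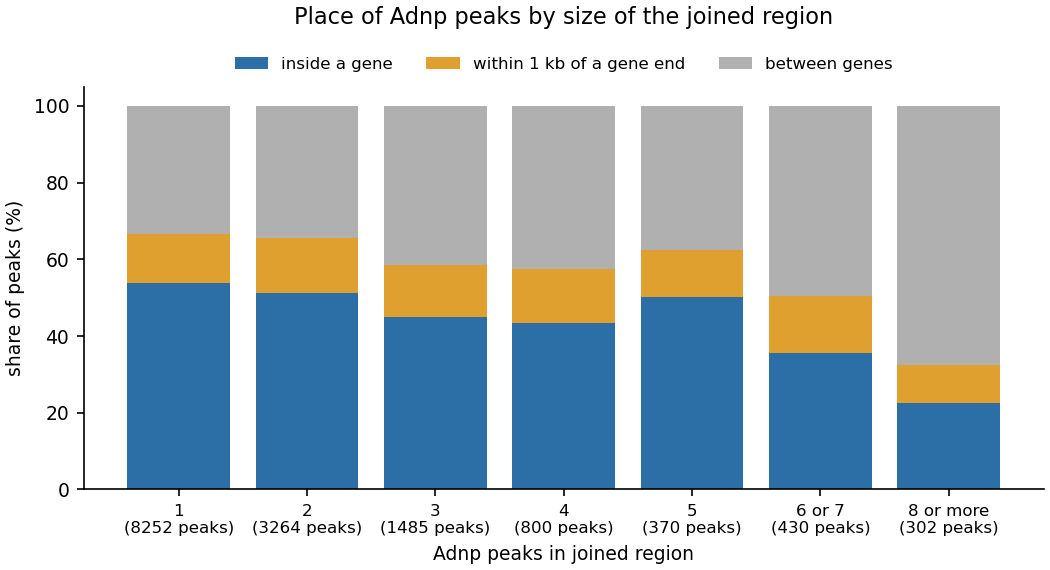
Share of Adnp peaks (%) inside a gene, within 1 kb of a gene end and between genes, by the number of peaks in the joined region, with the number of peaks under each bar. The grey part, between genes, grows from 33.4% of solitary peaks to 67.5% of peaks in runs of 8 or more.

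At gene ends no difference passed the test. The shares were 12.5 ± 4.53% for run peaks and 12.9 ± 2.22% for solitary peaks (SD, n = 19, adjusted p = 0.721, permutation test). This depended on what counts as an end. With ends of protein-coding genes alone the share was 2.29 percentage points lower in runs (5.34 against 7.64%, adjusted p = 0.00212), and with a window of 5 kb around an end of any gene it was 5.32 points higher (45.8 against 40.4%, adjusted p = 0.0206, both by the permutation test). At transcription starts in the promoter table, 99 of 1864 run peaks (5.31%) and 453 of 8013 solitary peaks (5.65%) lay within 1 kb, chromosome 18 not used here.

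Where run peaks did lie in protein-coding genes, the genes were shorter. The mean host gene length, averaged on a log10 scale, was 47.0 kb for run peaks and 70.5 kb for solitary peaks, a ratio of 0.667, and it was lower in runs on 15 of 19 chromosomes (adjusted p = 0.00183, permutation test). The distance from a peak's centre to the nearest end of a protein-coding gene, averaged in the same way, was 9.49 kb for run peaks and 12.4 kb for solitary peaks, a ratio of 0.768. It was shorter in runs on 14 chromosomes (adjusted p = 0.00183, permutation test). The call was lost with gaps of at most 5 kb (adjusted p = 0.284) and in runs of 6 or more (adjusted p = 0.0707, same permutation test). Solitary peaks reached farther: the upper quartile of their distance was 36.4 kb and the longest 1348 kb, against 20.6 and 153 kb in runs. Neither measure separated runs of 4 or more from runs of 2 or 3 by the permutation test (adjusted p = 0.367 for host length and 0.432 for distance).

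**Figure D5:**
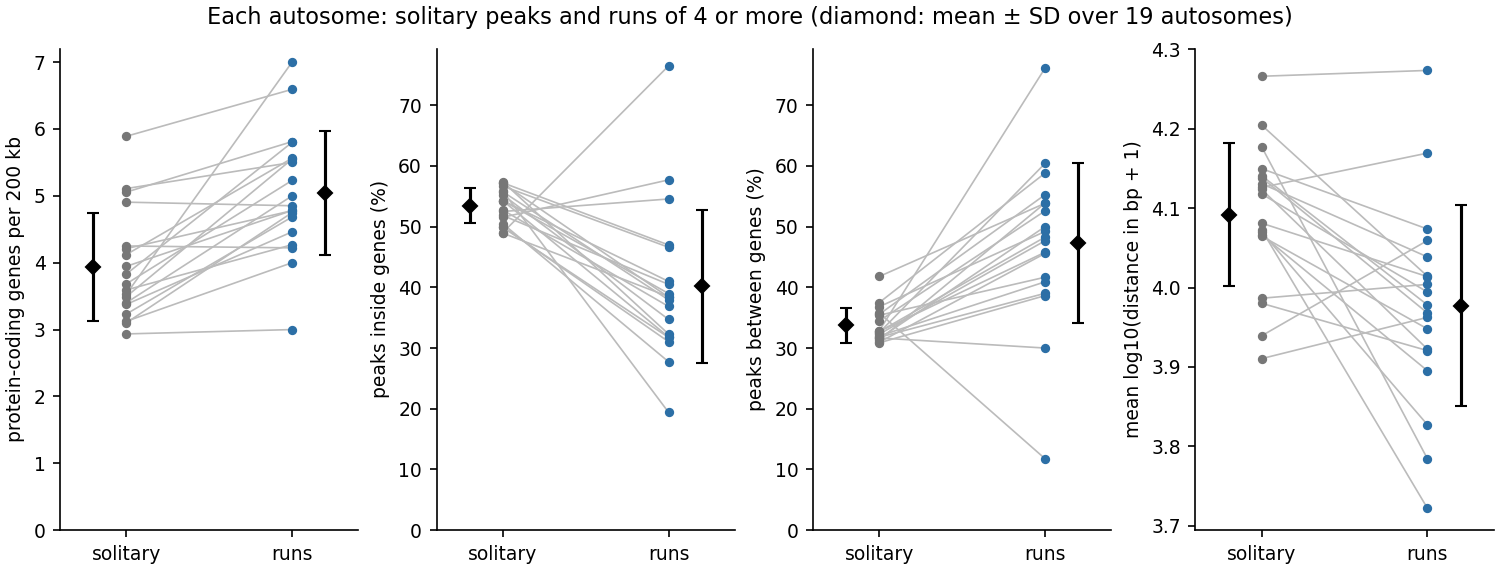
Values of each autosome for solitary peaks (grey) and run peaks (blue), joined by a line, with diamonds and bars at the mean ± SD of 19 autosomes. Protein-coding genes per 200 kb rise from 3.94 to 5.04, peaks inside genes fall from 53.4 to 40.2%, peaks between genes rise from 33.7 to 47.3%, and the mean log10 distance to a protein-coding gene end (axis not from 0) falls from 4.09 to 3.98.

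Runs were unevenly spread over the chromosomes. Chromosome 5 held 52 runs, with 20.4% of its peaks in runs and 3.50 runs per 10 Mb. Chromosome 13 held 5 runs, with 5.39% and 0.426. Chromosomes 11 and 17 followed chromosome 5 with 3.11 and 2.94 runs per 10 Mb. Over the 19 chromosomes, runs per 10 Mb went with protein-coding genes per Mb at Pearson r = 0.457 and Spearman rho = 0.518. The share of peaks in runs went with peaks per Mb at r = 0.581 and rho = 0.570, and with genes per Mb at r = 0.243 and rho = 0.314. The points share 1 library pool, and peaks were joined by the distance between them, so the share in runs and peaks per Mb are not separate measures. What lies behind these correlations was not tested. Runs also lay near each other: 77 of 373 had another run within 50 kb, in 35 groups, while the median distance to the nearest run was 466 kb.

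HP1γ peaks without the Adnp motif met few run peaks. Of 1902 run peaks 50 overlapped one by at least 1 bp, and of 8252 solitary peaks 160. The mean shares were 2.52 ± 1.90% and 1.98 ± 0.829% (SD, n = 19), and the difference did not pass the test (adjusted p = 0.283, permutation test). A total of 44 runs had such a peak and 4 had 2 or more. All 4 peaks of a short run at chr8:125695556-125699223 overlapped HP1γ peaks, with Adnp scores of 11.4, 10.5, 40.2 and 43.1. It touched no protein-coding gene and lay 22191 bp from Map10. The run near Smarcad1 had 2 of 11 peaks over HP1γ peaks, and so did a run of 9 peaks at Rnf216, a ubiquitin ligase gene. Since the HP1γ list leaves out peaks with the Adnp motif, it does not show how much HP1γ was bound at runs as a whole.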

How the data were processed

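Per the series' text, the authors made 1 Adnp peak list from ChIP replicates 1 to 3 and 1 HP1γ list (2047 rows, 1994 on autosomes). Per the labels' protocols, crosslinked chromatin was sonicated to about 300 bp and captured on streptavidin beads, with 1% kept as input. The submitters' processing notes name bcl2fastq 1.17, Bowtie 1.0.0, STAR 2.5.0a and MACS2 on mm10 (GRCm38) without roles. For caller settings and filters, the sources used here give nothing. The deposited lists hold positions and a score per peak. The authors' Adnp score is of a kind not stated, and the HP1γ score is 0 throughout and was not used. The Adnp list is sorted for 14667 rows and is followed by 359 others, of which 45 were run peaks (2.37%) and 206 solitary (2.50%).

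Starts were read as 0-based and are printed 1-based, with an uncertainty of 1 bp. Genes came from the RefSeq table for GRCm38.p6 (49997 genes; 46714 on chromosomes 1 to 19 starting at 3 Mb or later, 20560 protein coding). A peak was at a gene end within 1 kb of either end of any gene, otherwise inside or between genes; the host gene is the longest protein-coding gene a peak overlaps. Each of 7 measures was averaged per chromosome and compared by a two-sided permutation test over 19 signed differences (100000 resamples, Benjamini-Hochberg adjustment over 7, threshold 0.05), tested on simulated data. Scripts ran in Python 3.11.15 with pandas 2.3.3, NumPy 2.4.6, matplotlib 3.10.9 and SciPy 1.17.1.

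The genes named were those touching the 10 runs with most peaks (ties: longer span first), the 10 with most run peaks, up to 4 of each of 14 lists, the 5 whose ends had the highest run peaks, those at the 3 runs with most HP1γ overlaps, and those of the 4 printed promoters. Of the 10 runs with most peaks, 1 is not reported here. Members, lists and rules were chosen with earlier results of these data known. No genome was used here, so no peak sequence is printed, and promoters of chromosome 18 were not used here.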

Additional observations from a re-analysis of the deposited data

How the results depend on the processing

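No paired analysis was possible because each list pools its replicates and no result comes from a test over samples, and for the same reason no replicate could be left out. Run peaks lay inside genes less often and between genes more often under all 11 alternatives tested for each, with the adjusted p under 0.05, and the HP1γ overlap passed the threshold under none of 10. Values pooled over all peaks carried no test and had the direction of the mean over chromosomes except at gene ends (0.472 points). Counts of runs moved from 373 to 149 with gaps up to 5 kb, 703 with gaps up to 20 kb and 70 among peaks scored above the median. Counting a run peak within 5 kb raised the genes from 243 to 365. The log10 distance to a protein-coding gene end, -0.11 as reported, was -0.0666 with gaps up to 5 kb (adjusted p = 0.284) and -0.0978 in runs of 6 or more (0.0707), both short of the threshold by the permutation test. The gene-end share, -0.371 points as reported, was 5.32 points with ends of 5 kb (adjusted p = 0.0206) and -2.29 points with protein-coding genes alone (0.00212) by the same permutation test. Against runs of 2 or 3, a comparison chosen after seeing the data, as was the use of gene starts, the differences were 0.188 genes per 200 kb, -0.0584 in log10 host length and 0.0288 in log10 distance, none past the threshold and the last reversed. Gene density kept its call under the other 9 alternatives tested and host length under the other 7. The cause of these changes was not tested. Depth is unknown, and peaks under the authors' threshold are not in the list.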
